A study of Mus musculus with 3 samples.

Results

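Mesenchyme barcodes with a high mitochondrial share are droplets of mouse forelimb buds whose RNA carried limb mesenchyme transcripts and in which at least 10% of all unique molecular identifiers (UMIs) came from the mitochondrial genome. A barcode was taken if it had 500 or more genes detected and if Prrx1, Tbx5 and Twist1 together reached 2 CP10K, where CP10K is 10000 times the summed UMIs of a list divided by the UMIs outside the 13 mitochondrially encoded (mt-) genes. The endothelial genes Cdh5, Pecam1 and Emcn, and likewise the ectodermal genes Epcam, Trp63 and Wnt6, had to stay under 1 CP10K. Members were thus selected on measured values, the mt- share, the number of genes and the levels of these 9 gate genes. The rule took 2745 of the 22501 barcodes in the matrices, namely 907 in mutant 1, 1164 in mutant 2 and 674 in control 1. They are called high-mt mesenchyme below. The same gates with under 10% mt- UMIs took 5292 barcodes, 1440 in mutant 1, 2416 in mutant 2 and 1436 in control 1, which are called low-mt mesenchyme.

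All embryos were at embryonic day 9.5 and homozygous for the floxed allele, written Esco2fl/fl in the labels. Mutant embryos, Esco2fl/fl;Prrx1-CreTg/0, also carried a Cre transgene under regulatory sequence of Prrx1, which is active in limb bud mesenchyme, and control embryos, Esco2fl/fl, carried no Cre. Per the design text each replicate joined 3 pooled samples of 2 limb buds, so that 6 buds entered a library, from 2 male samples and 1 female sample. The design text speaks of 3 replicates of each genotype. The 2 mutant libraries and 1 control library used here make each control value a single measurement, and the sources do not say whether the pools came from separate litters, so the tests below rest on how far these libraries, perhaps technically, vary. Cells had been released with trypsin, frozen, thawed, pooled and strained before loading.

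The mitochondrial genome of vertebrates encodes proteins of the respiratory chain and is transcribed inside the organelle, while ribosomal proteins, the remaining respiratory chain subunits and all regulators of the cell are transcribed in the nucleus and their messages are translated in the cytoplasm. A barcode's mt- share therefore combines mitochondrial RNA with the amount of all other RNA in the same droplet, and in single-cell work it is commonly used to leave barcodes out. Esco2 acetylates cohesin during DNA replication so that sister chromatids hold together. The transcription factor p53 answers to DNA damage by switching on Cdkn1a, which arrests the cell cycle, Mdm2, which degrades p53, and death genes such as Bbc3 and Bax.

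The libraries held 178159788 to 225032823 UMIs, and 66, 65 and 117 cell barcodes were shared between pairs of libraries, of which at most 1 per pair lay in high-mt mesenchyme. Summed over high-mt mesenchyme, 4816207, 5382235 and 4945514 UMIs outside mt- genes were available in mutant 1, mutant 2 and control 1. The mutants and the control differed in sex-linked RNA. Xist, the RNA of the inactive X chromosome, had a UMI in 2.54% and 2.15% of mutant and 27.2% of control high-mt barcodes, although the labels give each replicate the same mix of sexes, so Xist and its antisense partner Tsix are not read as effects of the genotype. Esco2 itself (ENSMUSG00000022034; GRCm38 chromosome 14, 65819038 to 65833994) stood at 32.7 and 28.6 CPM in mutant and 30.4 CPM in control high-mt mesenchyme, with a log2 fold of 0.01 (SE 0.24, edgeR quasi-likelihood test, Benjamini-Hochberg adjusted p = 0.989). Because 3′ reads were counted and the sources do not name the floxed exons, this level says nothing of recombination. CPM here are UMIs of a gene per 1000000 UMIs outside mt- genes, summed over the barcodes of a library and scaled by TMM factors within the libraries compared. Without that scaling, the Y-linked gene Uty stood at 279 and 265 CPM in mutant and 203 CPM in control high-mt mesenchyme. Ddx3y, also Y-linked, stood at 63.1 and 69.3 CPM against 49.9 CPM, and the Y-linked Eif2s3y and Kdm5d were likewise higher in both mutants. The part of the sex of the cells in other genes was not tested. The feature CRE was found in 8 of 907 and 5 of 1164 mutant high-mt barcodes (0.882% and 0.430%), and in 0 of 674 control barcodes, so that a share of up to 0.445% is possible.

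The label was held against genes that the gate had not used. Of 23 limb transcription factors and signals, all 23 had UMIs in each library, and their sum was 95.9 and 81.2 CP10K in mutant and 94.8 CP10K in control high-mt mesenchyme. In high-mt barcodes that passed the endothelial gate instead, the sum was 17.2 and 21.0 CP10K in the mutants and 12.9 CP10K in the control, and in high-mt barcodes that passed the ectodermal gate it was 67.5, 55.5 and 67.6 CP10K, so these genes separated the mesenchyme from endothelium and less from ectoderm. The 18 limb Hox genes, which pattern the bud along its axes, summed to 5.70 and 6.46 CP10K in mutant and 5.43 CP10K in control high-mt mesenchyme, against 1.64 to 1.87 CP10K in ectoderm-gated and 0.809 to 1.94 CP10K in endothelium-gated high-mt barcodes. Both lists were thus highest in the gated mesenchyme in each of the 3 libraries.

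Markers of other cell types were low but present. The 13 further endothelial markers summed to 2.04 and 1.87 CP10K in mutants and 1.65 CP10K in control, and 15 ectodermal markers to 0.810, 1.03 and 0.740 CP10K, with Krt15 at 0 in all 3 libraries. Macrophage markers stayed at 0.141 to 0.210 CP10K. The 12 erythroid markers found in the files, haemoglobins included, reached 34.4 and 35.6 CP10K in mutants and 29.2 CP10K in control, which is the largest foreign signal among the lists measured. Myogenic markers summed to 1.83 and 1.89 CP10K in mutants and 0.752 CP10K in control, with Myod1 at 0 in all 3. Flank mesoderm markers ran the other way, at 0.874 and 0.572 CP10K in mutants and 1.58 CP10K in control, with Foxf2 at 0 in all 3. A UMI of Pax3, Lbx1, Gata4 or Tbx20, genes of those neighbouring tissues, was found in 11.4% and 11.7% of mutant and 11.6% of control high-mt barcodes.

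The mt- share and the depth chose the members, so they are given as a description. The median mt- share was 26.2% in mutant 1, 29.4% in mutant 2 and 25.1% in control 1, with maxima of 79.5%, 76.6% and 81.7%. Median UMIs outside mt- genes were 3208 and 3029.5 in mutant and 5109 in control high-mt mesenchyme, against 29356, 46447 and 25055.5 in low-mt mesenchyme. The number of mt- UMIs per barcode differed less between the classes, and least so in the mutants, with medians of 1468 and 1418.5 in mutant and 2180.5 in control high-mt mesenchyme, against 1122.5, 1118 and 635 in low-mt mesenchyme. In the mutants the high share therefore went mainly with fewer other UMIs. The control also had fewer other UMIs, and its low-mt median of 635 mt- UMIs mixed unlike barcodes. Control barcodes under 2% mt- UMIs had a median of 19, and those of 2 to 5% and 5 to 10% had 1841 and 2100. At 10 to 15% the control median was 2121.5 mt- UMIs. The plot of mt- against other UMIs shows the members as a flat band. The gate rested on few molecules. The median number of Prrx1, Tbx5 and Twist1 UMIs per high-mt barcode was 3 and 2 in mutants and 5 in control, and 33.1% and 35.7% of mutant and 22.6% of control barcodes had passed on 1 such UMI.

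**Figure D1:**
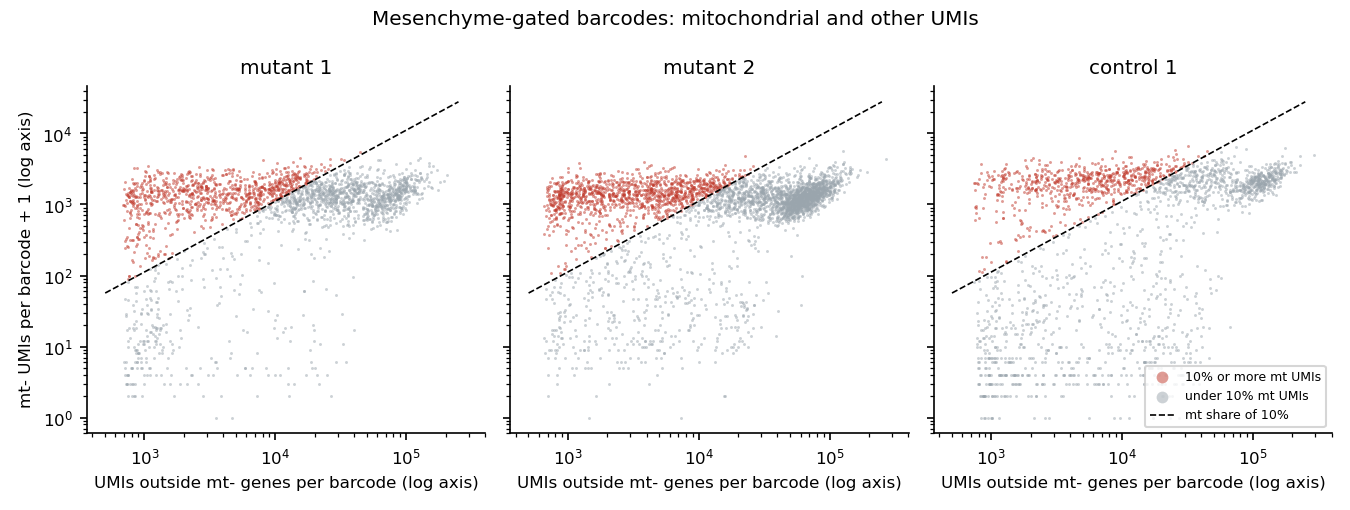
Each point is a mesenchyme-gated barcode, placed by its UMIs outside mt- genes (horizontal, log axis) and its mt- UMIs plus 1 (vertical, log axis), in mutant 1, mutant 2 and control 1, with the 10% mt- share as a dashed line. High-mt barcodes (red) form a level band with medians of 1468, 1418.5 and 2180.5 mt- UMIs over a wide range of other UMIs, and low-mt barcodes (grey) continue the band to greater depth and also fill a region of few mt- UMIs.

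Which mt- genes gave the UMIs hardly differed between the classes. The ATP synthase subunit gene mt-Atp6 made up 18.0% and 19.5% of mt- UMIs in mutant and 18.8% in control high-mt mesenchyme, against 16.8%, 17.9% and 17.5% in low-mt mesenchyme. The cytochrome c oxidase gene mt-Co2 made up 16.5% and 16.3% in mutants and 15.4% in control, against 16.6%, 16.1% and 15.3%. For mt-Co1, another subunit of that oxidase, the shares were 12.0%, 11.4% and 12.0%, against 13.7%, 13.5% and 13.7%. Once every barcode had been thinned at random to 1500 UMIs outside mt- genes, high-mt mesenchyme had medians of 1065 and 1067 genes in mutants and 1066 genes in control, against 1034, 967 and 934 genes in low-mt mesenchyme, so that high-mt barcodes were at least as varied at equal depth in each library. Thinning left out 242, 327 and 89 high-mt barcodes as too shallow.

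On either side of the 10% limit the values were close. Barcodes of 10 to 11% mt- UMIs had medians of 11009 and 12273 other UMIs in mutants and 16262 in control, against 13145, 13425.5 and 19632 in barcodes of 9 to 10%. Along the whole range of mt- share the members changed gradually. From 10 to 15% up to 40% and more, median UMIs outside mt- genes were lower in each next bin of each library and came to 1259, 1157 and 1861.5 in mutant 1, mutant 2 and control 1 in the highest bin, while median mt- UMIs in that bin were 1595, 1473.5 and 2229.5. Haemoglobin transcripts, which limb mesenchyme does not make, had a median of 0.982%, 0.998% and 0.795% of UMIs outside mt- genes in the highest bin. Their part in the other values of shallow barcodes was not tested.

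**Figure D2:**
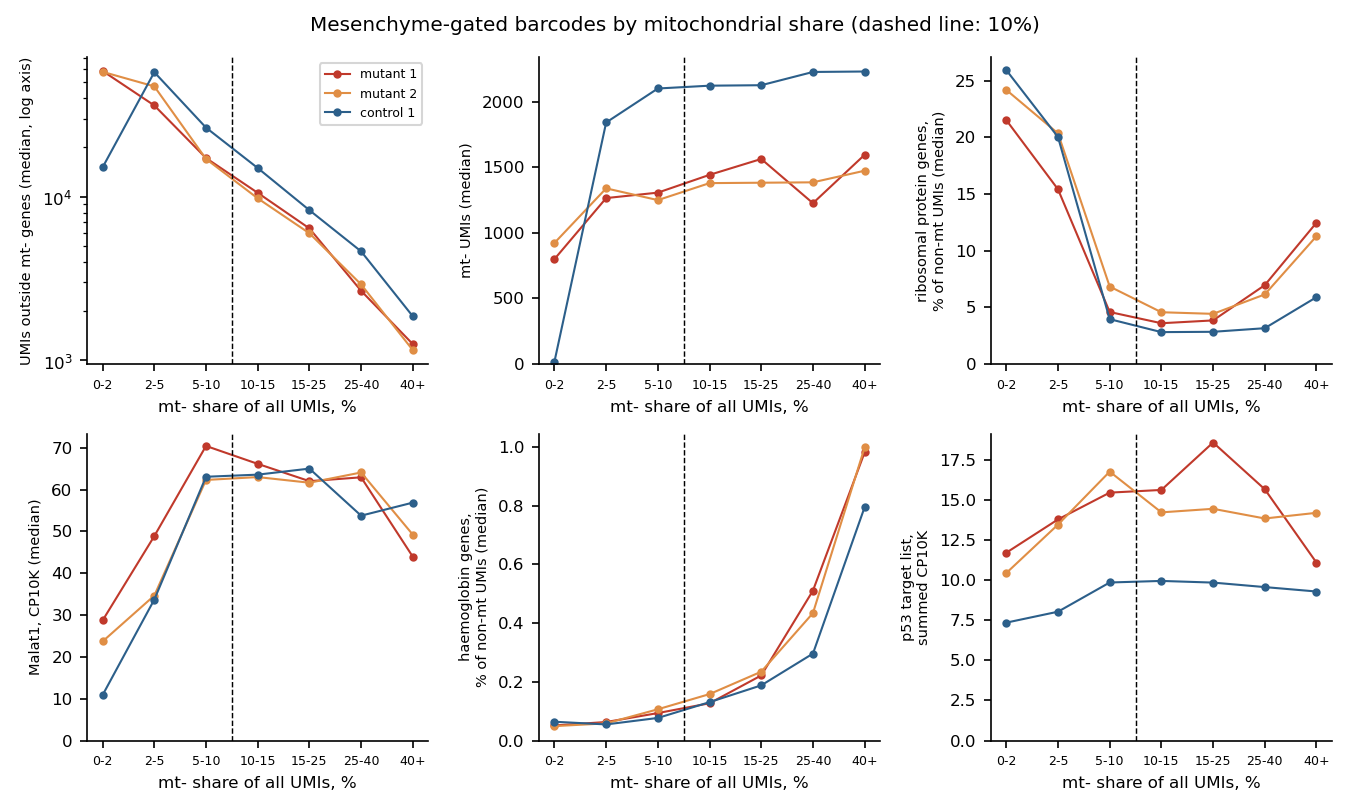
Medians per barcode, and the summed CP10K of the p53 target list, are plotted against bins of mt- share for mutant 1, mutant 2 and control 1 in all mesenchyme-gated barcodes, with the 10% limit as a dashed line. Depth was lower at higher mt- share in both mutants and, from 2% upward, in control 1. Under 2%, control 1 had a median of 15127 other UMIs, against 57637.5 at 2 to 5%. Haemoglobin came to 0.795 to 0.998% in the top bin, and ribosomal protein transcripts were lowest between 10 and 25%. The p53 list lay higher in both mutants than in the control in each bin.

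High-mt barcodes made up 38.6% (95% interval 36.7 to 40.6%, exact Clopper-Pearson) of all mesenchyme barcodes in mutant 1, 32.5% (31.0 to 34.1%) in mutant 2 and 31.9% (30.0 to 34.0%) in control 1. Mutant 1 lay above the other libraries, and the intervals of mutant 2 and control 1 overlapped. The mutants exceeded the control by 3.64 percentage points, less than the SD of 4.34 points between the mutants, and the difference turned to -1.30 to -2.20 points when a gate of 5 CP10K, at least 2 gate UMIs or at least 1000 genes was asked for. With 1 control against 2 mutants no exact permutation test can go below p = 0.333, so shares carry no test, and their intervals cover counting error only. Outside the mesenchyme, 13.1% and 14.5% of mutant and 15.6% of control endothelium-gated barcodes, and 23.1%, 27.4% and 23.0% of ectoderm-gated barcodes, reached the same mt- share.

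Mutant and control high-mt mesenchyme differed in p53 target genes. Of the 36 listed targets 31 had enough UMIs to be tested, and 11 were called higher in the mutants and 0 lower. The called genes were Cdkn1a, Mdm2, Ccng1, Bbc3, Trp53inp1, Eda2r, Ddit4l, Btg2, Apaf1, Psrc1 and Ptpn14. The list had a median log2 fold of 0.97 and 27 of 31 positive values. Over all 10921 genes tested, 150 were called (1.37%), 100 of them higher (0.916%) and 50 lower (0.458%), by edgeR's quasi-likelihood test at a Benjamini-Hochberg adjusted p under 0.05, and the median log2 fold was 0.00. Log2 folds are given as mutants over control. A gene's own error had 1 residual degree of freedom, from the 2 mutants, beside 12.2 prior degrees of freedom that edgeR took from the spread over all genes. The p-values thus rest mostly on that shared spread. With the prior degrees of freedom lowered to 4 no gene was called.

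Cdkn1a (ENSMUSG00000023067; GRCm38 chromosome 17, 29090976 to 29100727, plus strand) encodes the cyclin-dependent kinase inhibitor p21. It stood at 27.7 and 26.6 CPM in mutant 1 and mutant 2 and at 0.395 CPM in control 1, from 132, 141 and 2 UMIs. Both mutants lay far above the control. The summed mutant level was 66.2 times the control level, with an exact 95% counting interval of 18.2 to 549, and the fitted log2 fold was 6.01 (SE 0.54, edgeR quasi-likelihood adjusted p = 5.8e-05), a value that depends on the prior count because the control had so few UMIs. Ccng1 (ENSMUSG00000020326; GRCm38 chromosome 11, 40748552 to 40755311, minus strand), a cyclin that feeds back on p53 through Mdm2, stood at 34.4 and 26.6 CPM in mutants and 4.15 CPM in control (log2 2.87, SE 0.37, edgeR adjusted p = 0.00146).

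The 250 bases before RefSeq's transcription start of these genes are shown because of the 10 called targets found in the RefSeq table they alone held a close match to the p53 response element, a pair of 10-base sites with up to 13 bases between them. The sequences are RefSeq's for build GRCm38.p6, 5′ to 3′ on the gene's own strand, and capitals mark the 10-base sites that a search of both strands found. RefSeq's starts lie within the gene bounds given above, which are GENCODE's, so the last bases shown belong to the gene in GENCODE. The Cdkn1a window is chr17:29090729-29090978 on the plus strand and the Ccng1 window chr11:40755287-40755536 on the minus strand.
Cdkn1a: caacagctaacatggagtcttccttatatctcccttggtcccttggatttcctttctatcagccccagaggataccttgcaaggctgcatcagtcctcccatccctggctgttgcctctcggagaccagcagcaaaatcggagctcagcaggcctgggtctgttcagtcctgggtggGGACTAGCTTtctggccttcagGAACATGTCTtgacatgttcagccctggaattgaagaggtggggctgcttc
Ccng1: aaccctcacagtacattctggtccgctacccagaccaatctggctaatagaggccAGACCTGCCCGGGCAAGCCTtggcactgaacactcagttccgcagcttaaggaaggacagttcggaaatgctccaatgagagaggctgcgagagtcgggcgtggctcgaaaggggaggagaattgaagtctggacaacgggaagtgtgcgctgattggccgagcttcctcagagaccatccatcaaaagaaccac
The Cdkn1a pair kept every base of the motif, with 12 bases between the sites, at positions -73 to -42 counted from RefSeq's start. The Ccng1 pair had 1 mismatch and no gap, at -195 to -176. Windows of 300 bases around the starts of 27025 genes were searched, and 20 genes (0.074%) held a pair without mismatch and 194 (0.718%) a pair with at most 1. Of the 28 listed targets found in that table, Cdkn1a held a pair without mismatch, and Cdkn1a, Ccng1 and Gtse1 held one with at most 1 mismatch. A match describes letters in a window and no binding was measured.

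Other p53 targets of the cell cycle and of feedback followed. Mdm2, which marks p53 for degradation, stood at 139 and 143 CPM in mutants and 69.3 CPM in control (log2 1.02, SE 0.17, edgeR adjusted p = 0.0106). Trp53inp1, a co-factor of p53, stood at 22.4 and 23.6 CPM against 1.58 CPM, and Ddit4l, an inhibitor of mTOR signalling, at 9.85 and 8.86 CPM against 0.197 CPM. For each of these genes both mutants lay above the control. Trp53 itself did not pass the test, at 75.2 and 76.1 CPM in mutants and 74.8 CPM in control (log2 0.02, SE 0.17, edgeR adjusted p = 0.980), and the p53 inhibitor Mdm4 stood at 188 and 166 CPM against 201 CPM (log2 -0.18, adjusted p = 0.692).

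Of the targets in the death arm, Bbc3, Apaf1 and Eda2r were called higher, while Bax, Fas and Tnfrsf10b did not pass the test. Bbc3, which encodes the BH3-only protein PUMA, stood at 10.7 and 14.3 CPM in mutants and 3.16 CPM in control (log2 1.98, SE 0.45, edgeR adjusted p = 0.0497). Apaf1, the scaffold of the apoptosome, stood at 105 and 86.5 CPM against 47.6 CPM (log2 1.01, adjusted p = 0.0212). The death receptor Eda2r, which is X-linked, stood at 40.0 and 27.7 CPM against 2.17 CPM (log2 3.94, adjusted p = 0.000285). Both mutants were above the control for all 3 genes. Bax, the pore-forming effector of the mitochondrial outer membrane, had 64.1 and 71.8 CPM in mutants and 45.2 CPM in control and did not pass (log2 0.59, SE 0.19, edgeR adjusted p = 0.159). The death receptor gene Fas had 9.43 and 9.80 CPM in mutants and 3.36 CPM in control (log2 1.51, adjusted p = 0.116), and the death receptor gene Tnfrsf10b had 28.5 and 21.7 CPM in mutants and 16.0 CPM in control (log2 0.65, adjusted p = 0.379). Pmaip1, which encodes NOXA, had 17 and 21 UMIs in mutants and 1 UMI in control, a ratio of 18.4 with a counting interval of 3.11 to 747, and was too low to test. Of 27 tested genes of the apoptosis machinery, 2 were called higher, the targets Bbc3 and Apaf1, and 0 lower, with a median log2 fold of 0.09.

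**Figure D3:**
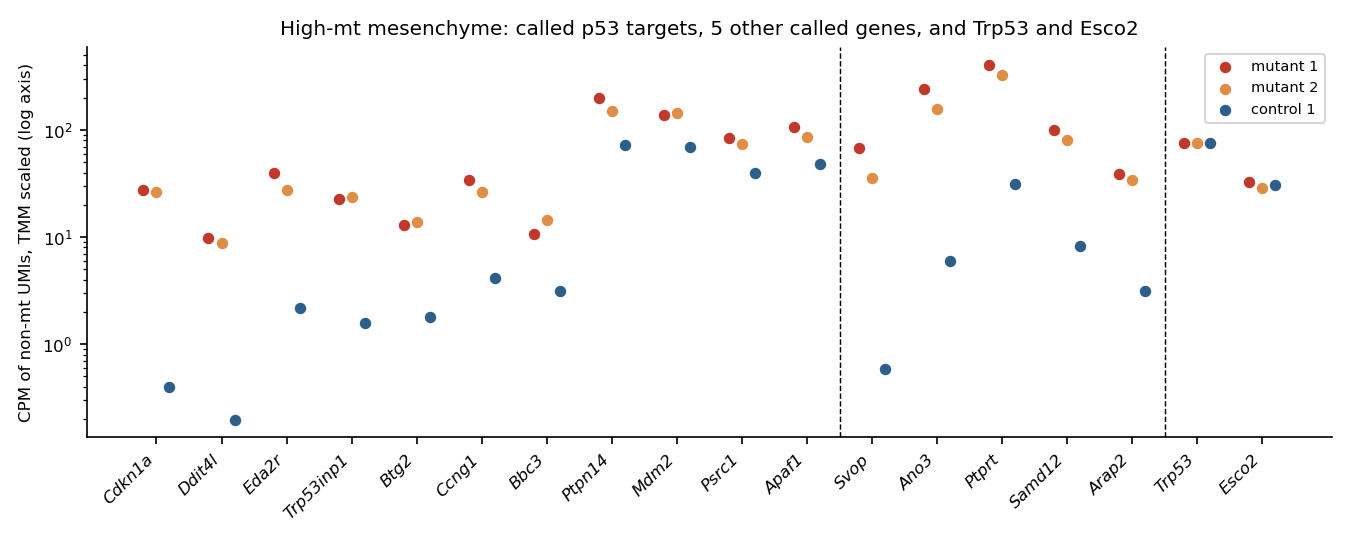
CPM of UMIs outside mt- genes (TMM scaled, log axis) in high-mt mesenchyme are drawn for mutant 1, mutant 2 and control 1, 1 point per library, for the 11 called p53 targets, for 5 other called genes, and for Trp53 and Esco2. Both mutant points lie above the control point for every called gene shown, as the rule for naming genes required of the 5 other genes. The 3 points of Trp53 lie between 74.8 and 76.1 CPM.

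Counted per barcode at 1500 UMIs, Cdkn1a was found in 25 of 665 barcodes of mutant 1 (3.76%, exact interval 2.45 to 5.50%), in 21 of 837 of mutant 2 (2.51%, 1.56 to 3.81%) and in 0 of 585 of control 1, so that a share of up to 0.513% is possible. Haemoglobin-rich barcodes, with 20% or more of their UMIs from haemoglobin genes, gave 0 of 638, 4 of 489 and 4 of 455 (0%, 0.818% and 0.879%) at the same depth. Both mutants lay above these shares and the control did not. Whether haemoglobin-rich cells make Cdkn1a themselves was not tested, so their shares are no measure of background. Unthinned, the shares were 8.49%, 5.58% and 0.297% in high-mt mesenchyme at median depths of 3208, 3029.5 and 5109 UMIs, and 5.75%, 7.09% and 5.84% in haemoglobin-rich barcodes at 62888.5, 57499.5 and 82445 UMIs. The mutant signal was spread over the range of mt- share. The p53 target list summed to 15.6 and 14.2 CP10K in mutants and 9.94 CP10K in control at 10 to 15% mt- UMIs, and to 11.1 and 14.2 CP10K against 9.28 CP10K at 40% and more. In each of the 4 bins from 10% upward both mutants were above the control.

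Over all genes, the 10 called with the largest rise at a mean of 20 CPM or more were Svop, Ano3, Pax3, Anks1b, Eda2r, Ptprt, Arap2, Samd12, Gm26870 and Ccng1, of which Eda2r and Ccng1 are in the p53 list. Svop (chromosome 5, 114026910 to 114091570), a synaptic vesicle transporter-like gene, stood at 67.3 and 35.8 CPM in mutants and 0.592 CPM in control, from 321, 190 and 3 UMIs. Its summed ratio was 82.6 with an exact counting interval of 28.1 to 402, and the gene overlaps Usp30 on the other strand. Counting by strand is not stated in the sources, so reads of such overlapping pairs may be shared. Ano3 (chromosome 2, 110655201 to 110950923), an anoctamin membrane protein, stood at 240 and 157 CPM in mutants and 5.92 CPM in control (log2 5.06, SE 0.33, edgeR adjusted p = 2.8e-06). At 1500 UMIs it was found in 9.17% and 8.84% of mutant and 1.20% of control barcodes, against 0.157%, 0.409% and 0.220% of haemoglobin-rich barcodes. Both mutants exceeded the control in all these values, which for CPM the rule for naming genes required.

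Ptprt, a receptor tyrosine phosphatase, stood at 406 and 325 CPM in mutants and 31.2 CPM in control (log2 3.55, SE 0.21, edgeR adjusted p = 1.56e-06). Samd12 stood at 98.9 and 81.0 CPM against 8.29 CPM, Anks1b at 58.7 and 41.1 CPM against 2.37 CPM, and Arap2, a regulator of small GTPases, at 38.6 and 34.3 CPM against 3.16 CPM. Both mutants lay above the control in each, as the rule for naming genes required, so this is no further support. Pax3, which marks migrating muscle precursors, stood at 65.2 and 85.2 CPM in mutants and 2.96 CPM in control (log2 4.66, SE 0.32, edgeR adjusted p = 5.38e-06), and Met, the receptor that guides those precursors, at 17.4 and 21.5 CPM against 4.15 CPM (log2 2.22, adjusted p = 0.0127). Of the 10 myogenic markers 3 had enough UMIs to be tested, of which Pax3 and Met were called, and the list's sums given above rest in part on Pax3. The part of such cells in these genes was not tested. After all barcodes with a Pax3, Lbx1, Gata4 or Tbx20 UMI were left out, 12 of the 31 tested p53 targets were called higher and 0 lower, beside 81 genes called higher over all, of which 72 were among the 100 given first.

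Among patterning genes the differences were few. Of 22 tested limb transcription factors and signals 1 was called higher, Tbx15, at 250 and 406 CPM in mutants and 126 CPM in control (log2 1.38, SE 0.24, edgeR adjusted p = 0.0127), and 0 lower, with a median of -0.02. Tbx15 is a T-box factor of limb and dermal mesenchyme. Of 15 tested limb Hox genes none was called in either direction (median 0.32). By name, Hoxd11 had 7.96 and 22.2 CPM in mutants and 4.94 CPM in control and was not called (log2 1.62, SE 0.55, edgeR adjusted p = 0.191). Of 22 tested signalling targets 1 was higher, the retinoic acid hydroxylase Cyp26b1, at 18.9 and 20.7 CPM in mutants and 4.94 CPM in control (log2 2.00, adjusted p = 0.0169). Of 23 matrix and membrane genes 1 was higher, the basement membrane gene Nid1 (log2 0.94, adjusted p = 0.0294), and 0 lower.

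The called genes with the strongest decrease in mutants, after Xist and Tsix, included Kcnip2, Gm12146, Gm44511, Fam151a, Rec114, Clstn2 and Xaf1. Kcnip2, a potassium channel-interacting protein, stood at 12.8 and 27.3 CPM in mutants and 71.3 CPM in control (log2 -1.82, SE 0.30, edgeR adjusted p = 0.0102). Gm44511 stood at 57.4 and 69.6 CPM in mutants and 196 CPM in control (log2 -1.63, adjusted p = 0.000208), and it overlaps Klrb1c and Klrb1b on the same strand, so its reads may be split among them. Gata4, a factor of flank and heart mesoderm, was lower as well, at 12.6 and 5.65 CPM in mutants and 34.0 CPM in control (log2 -1.91, SE 0.36, adjusted p = 0.0208). Both mutants lay below the control in each case, as the rule for naming genes required of Kcnip2 and Gm44511. Of the 10 flank mesoderm markers 4 were tested, and Gata4 alone was called. The part of such cells in its level was not tested.

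Cell cycle, cohesin and stress lists had few calls. None of 40 tested S-phase genes was called (median log2 -0.07), and of 52 tested G2/M genes 1 was higher, the kinase subunit Cks1b (log2 0.81, adjusted p = 0.0497), with a median of 0.04. None of 16 tested cohesin and cohesion genes was called (median -0.05). The integrated stress response (22 tested), endoplasmic reticulum stress (20), heat shock (11), and glycolysis and hypoxia lists (24) had 0 calls in either direction, with medians of 0.14, 0.38, -0.04 and 0.02. Of the endoplasmic reticulum stress genes 18 of 20 had a positive log2 fold. Of 13 tested immediate early genes 1 was higher, the p53 target Btg2, and 0 lower, with 10 positive values and a median of 0.58. Over all genes, 1422 had an unadjusted p under 0.05, and DESeq2 gave no adjusted p to any of the 31 tested p53 targets.

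Ribosomal protein genes were mostly on the positive side in mutant high-mt mesenchyme. Of 82 tested, 81 had a positive log2 fold, the median was 0.62, 7 were called higher and 0 lower. Rpl32, a protein of the large subunit, stood at 813 and 946 CPM in mutants and 495 CPM in control (log2 0.83, SE 0.18, edgeR adjusted p = 0.0364), and Rps27l, a ribosomal protein gene that p53 also regulates, at 168 and 178 CPM against 86.3 CPM (log2 1.00, adjusted p = 0.0102). The per-barcode median of ribosomal protein transcripts was 6.41% and 6.82% of UMIs outside mt- genes in mutants and 3.54% in control. The number of calls moved with the settings, between 0 and 78 of the list. Depth moved with this difference, since mutant barcodes were shallower and within each library the ribosomal share climbed above 25% mt- UMIs, to 12.5%, 11.3% and 5.90% in the highest bin, although both mutants were above the control in all 4 bins from 10% upward. The part of depth was not tested. The 35 nuclear genes of the respiratory chain gave 0 calls, 33 positive values and a median of 0.44.

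The same comparison in low-mt mesenchyme shares its libraries with the one above, so the values are set side by side. There 9 of 31 tested p53 targets were called higher and 0 lower, with a median log2 fold of 0.65, beside 171 genes called (1.67%), 83 higher (0.811%) and 88 lower (0.859%), of 10239 tested. Cdkn1a had 57.0 and 62.2 CPM in mutants and 1.56 CPM in control low-mt mesenchyme (log2 5.25, SE 0.40), Ccng1 40.6 and 40.4 CPM against 8.32 CPM (log2 2.28, SE 0.31), and Ano3 71.4 and 57.1 CPM against 4.45 CPM (log2 3.85, SE 0.37). Mdm2, called in high-mt mesenchyme, had 85.5 and 80.4 CPM in mutants and 44.8 CPM in control low-mt mesenchyme (log2 0.89, SE 0.34, edgeR adjusted p = 0.266). In high-mt mesenchyme its log2 fold was 1.02 with an SE of 0.17. The low-mt fit had a common dispersion of 0.0364, against 0.0153 in the high-mt fit, so calls in 1 class alone are not read as a difference between the classes. The ribosomal protein genes had a median of -0.12 and 0 calls there. At 1500 UMIs Cdkn1a was found in 4.71%, 5.87% and 0.159% of low-mt barcodes of mutant 1, mutant 2 and control 1.

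Whether the mutant effect itself differed between the classes was tested with an interaction term over the 6 sums. No gene of 10676 was called (0%), the lowest adjusted p was 0.241 and 885 genes had an unadjusted p under 0.05. The difference of the log2 folds, high-mt minus low-mt, was 0.87 (SE 0.76, edgeR adjusted p = 0.927) for Cdkn1a, 0.17 (SE 0.21, adjusted p = 0.953) for Mdm2 and 1.23 (SE 0.31, adjusted p = 0.276) for Ano3. For Rpl32 it was 0.92 (SE 0.16, adjusted p = 0.241), and all 82 ribosomal protein genes had a positive value, with a median of 0.79. The count moved with the setting: DESeq2, which left 9314 of the genes without an adjusted p, called 205, 203 of them with a larger log2 fold in high-mt mesenchyme, and the other settings called 0 to 1803.

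Set against low-mt mesenchyme of the same libraries, high-mt mesenchyme was poor in transcripts of short genes for housekeeping proteins and rich in transcripts of long genes. Since the mt- share separates these classes, values and calls describe them and nothing is read from the number of calls. Of 10676 genes tested with the library as a block, 8287 were called (77.6%), 4229 higher in high-mt mesenchyme (39.6%) and 4058 lower (38%). CPM values here are scaled over all 6 sums and so differ slightly from those above. All 82 ribosomal protein genes were lower (median log2 -2.50, against 0.05 over all genes), as were all 35 nuclear respiratory chain genes (-2.16) and all 18 genes of the actin and tubulin cytoskeleton (-1.96). The ribosomal protein gene Rps13 had 404, 461 and 247 CPM in high-mt mesenchyme of mutant 1, mutant 2 and control 1, against 2517, 3267 and 3082 CPM in low-mt mesenchyme (log2 -3.03, SE 0.24), and cytochrome c, Cycs, had 61.4, 68.2 and 48.6 CPM against 360, 472 and 527 CPM (log2 -2.92, SE 0.17). The classes did not overlap in either gene. The rule for naming genes chose them for a strong decrease of the same sign in each library, so this is no further support. While mt- RNA defined the class, the nuclear genes for the same respiratory chain were thus lower relative to other nuclear genes. Their sum did not fall steadily with the mt- share. It was 47.6, 57.5 and 38.7 CP10K in mutant 1, mutant 2 and control 1 at 5 to 10% mt- UMIs. At 10 to 15% it was 34.9, 41.5 and 30.2 CP10K, and at 40% and more 64.2, 63.7 and 43.5 CP10K.

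**Figure D4:**
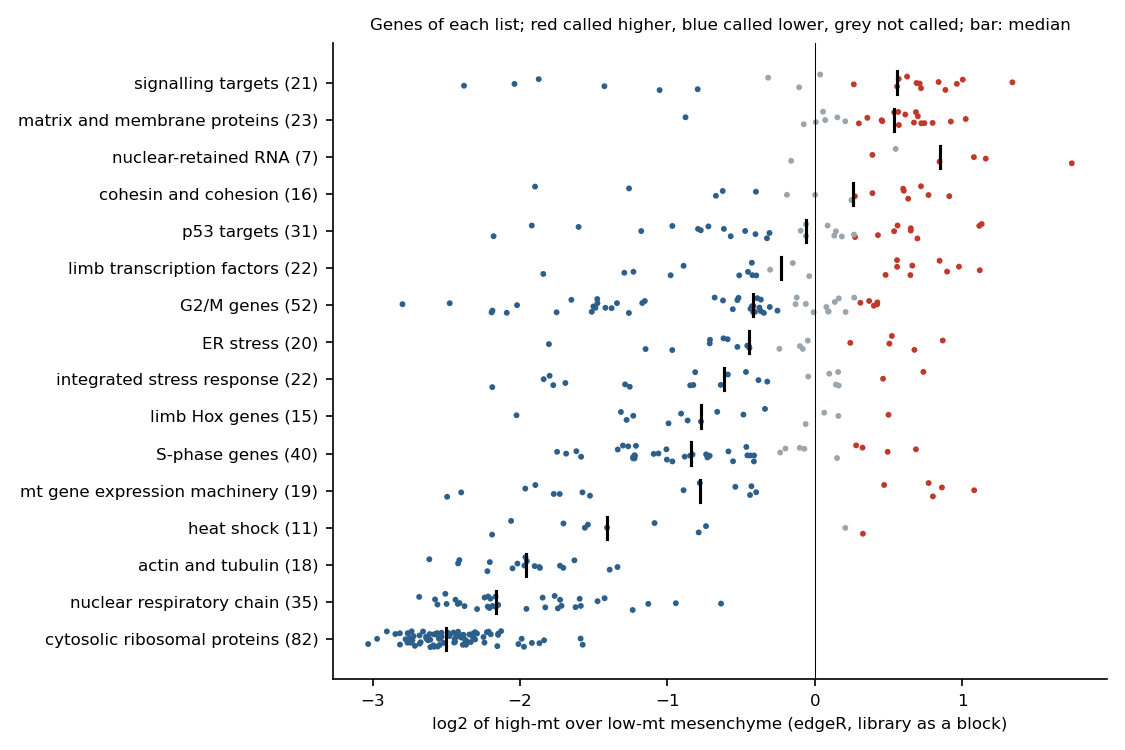
Each point is a tested gene, placed by its log2 fold of high-mt over low-mt mesenchyme (edgeR, library as a block), in 16 lists with the number tested in brackets, and a bar marks the median. Red genes were called higher, blue genes lower and grey genes neither, and the medians run from -2.50 for ribosomal proteins to 0.85 for nuclear-retained RNA.

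Cell cycle lists were mostly lower in high-mt mesenchyme. Of 40 S-phase genes 31 were lower and 4 higher (median -0.84), and of 52 G2/M genes 36 were lower and 5 higher (median -0.42). The ubiquitin-conjugating enzyme gene Ube2c, which acts in mitotic exit, had 63.5, 76.3 and 46.3 CPM in high-mt mesenchyme against 285, 395 and 349 CPM in low-mt mesenchyme. All 41 tested replication-dependent histone genes, a group chosen after its values were seen, were lower, with a median of -1.93. Hist1h1b, which encodes a linker histone, had 66.0, 50.6 and 65.4 CPM in high-mt mesenchyme, against 493, 502 and 616 CPM in low-mt mesenchyme (log2 -3.15, SE 0.13).

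Stress lists were mostly lower in high-mt than in low-mt mesenchyme. Heat shock genes were lower in 9 of 11 and higher in 1 (median -1.41), integrated stress response genes lower in 15 of 22 and higher in 2 (median -0.61), endoplasmic reticulum stress genes lower in 11 of 20 and higher in 5 (median -0.45), and immediate early genes lower in 10 of 13 and higher in 1 (median -0.77). The 1 that was higher in the last list, Nr4a1, had 10.3, 8.43 and 7.80 CPM in high-mt mesenchyme, against 4.61, 4.22 and 4.39 CPM in low-mt mesenchyme. Of 27 apoptosis genes 13 were lower and 6 higher (median -0.30), beside 38% lower and 39.6% higher over all genes. The initiator caspase gene Casp8 was among those higher, at 21.2, 17.3 and 35.0 CPM in high-mt mesenchyme against 13.4, 16.0 and 16.0 CPM in low-mt mesenchyme. The mitochondrial quality control genes were lower in 11 of 17 and higher in 1 (median -1.27), Hspe1, a mitochondrial chaperonin, having 346, 403 and 252 CPM in high-mt mesenchyme against 1735, 2224 and 2082 CPM in low-mt mesenchyme. Within high-mt mesenchyme the heat shock list summed to 31.5, 47.8 and 33.4 CP10K in mutant 1, mutant 2 and control 1 at 10 to 15% mt- UMIs. At 40% and more it summed to 61.3, 65.4 and 43.7 CP10K. The immediate early list summed to 1.84, 2.92 and 2.03 CP10K at 10 to 15%, and to 3.14, 4.78 and 2.57 CP10K at 40% and more. The part of depth in these sums was not tested.

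The p53 list had no common direction between the classes, with 9 of 31 genes higher, 14 lower and a median of -0.06. Cdkn1a had 23.5, 23.3 and 0.332 CPM in high-mt mesenchyme of mutant 1, mutant 2 and control 1, against 66.1, 73.4 and 1.83 CPM in low-mt mesenchyme (log2 -1.60, SE 0.14), and Bax was lower too (log2 -2.18, SE 0.12). Apaf1 was higher, at 89.5, 75.8 and 40.0 CPM against 53.2, 45.7 and 26.6 CPM (log2 0.70, SE 0.09). Trp53 had 63.9, 66.7 and 62.9 CPM in high-mt mesenchyme against 154, 205 and 191 CPM in low-mt mesenchyme (log2 -1.50, SE 0.11). At matched depth, described last, 2 of the 31 were higher and 2 lower. In each of these genes all libraries moved the same way between the classes.

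Matrix and membrane protein genes were higher, 16 of 23 with 1 lower, Sparc (median 0.54), as were 5 of 7 RNAs known to stay in the nucleus (median 0.85) and 12 of 21 signalling targets, with 6 lower (median 0.56). Col4a1 and Fn1 were among those higher. The basement membrane gene Hspg2 had 67.6, 73.2 and 59.1 CPM in high-mt mesenchyme against 34.2, 29.4 and 35.0 CPM in low-mt mesenchyme (log2 1.02, SE 0.12), and the nuclear RNA Kcnq1ot1 had 1332, 1335 and 1191 CPM against 685, 535 and 520 CPM (log2 1.16, SE 0.16). Malat1, another nuclear RNA, had 6360, 6556 and 6123 CPM in high-mt mesenchyme against 4833, 4083 and 4144 CPM in low-mt mesenchyme, and did not pass (log2 0.55, SE 0.26, edgeR adjusted p = 0.0731). Among limb genes 9 of 22 transcription factors and signals were higher and 10 lower, close to the 39.6% higher and 38% lower over all genes. Tbx15 was higher (212, 356 and 106 CPM against 104, 164 and 45.6 CPM), while Msx2, a homeobox gene of the distal bud, was lower (8.36, 10.6 and 16.3 CPM against 28.6, 34.6 and 65.3 CPM).

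The class difference followed the length of the gene. Across 10668 tested genes with a span in the annotation, GENCODE M21, the Spearman correlation of span with the log2 fold of high-mt over low-mt mesenchyme was 0.69, and it was 0.67, 0.69 and 0.66 within mutant 1, mutant 2 and control 1. These values run across genes of the same libraries, which are not independent, and are a description. The median span was 74433 bases for genes called higher and 12361 bases for genes called lower. In the tenth part of genes with the shortest spans the median log2 was -1.61, with 59 genes higher and 895 lower, and in that with the longest spans it was 0.84, with 1003 higher and 13 lower. Median spans were 3266 bases for the ribosomal protein genes, with a median log2 of -2.50, and 87198 bases for the matrix and membrane genes, with 0.54. Lists between them did not keep to the order of span, since the p53 targets (18235 bases) had a median log2 of -0.06 and the S-phase genes (18247 bases) one of -0.84. For the mutant difference within high-mt mesenchyme the correlation with span was -0.12.

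**Figure D5:**
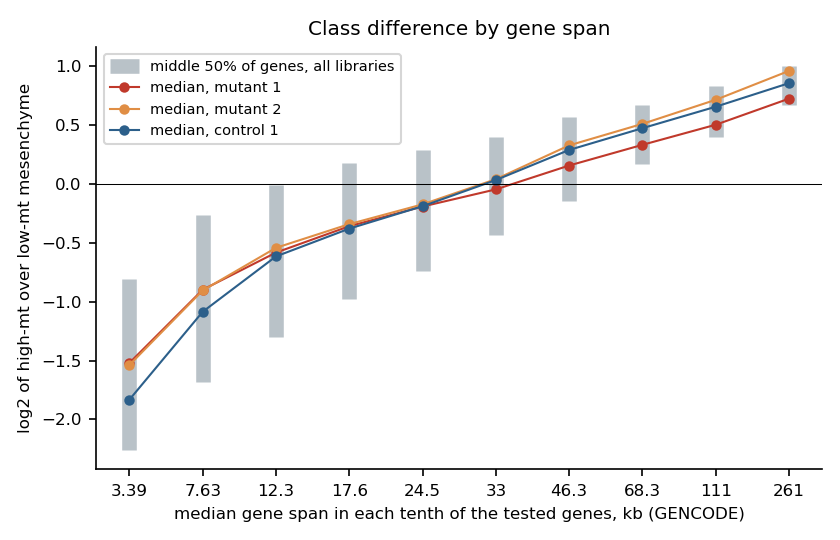
Tested genes were sorted by gene span into 10 groups of equal size, labelled with their median span in kilobases, and the log2 fold of high-mt over low-mt mesenchyme is drawn as the median in mutant 1, mutant 2 and control 1 (points) and as the middle 50% of genes in the joint fit (bars). The joint median runs from -1.61 in the shortest group to 0.84 in the longest, and the 3 libraries give the same order.

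Single genes led the rise with the mt- share. Taco1 (chromosome 11, 106066061 to 106073612, plus strand), a nuclear gene for a translational activator of mitochondrial cytochrome c oxidase, had 1447, 1328 and 2870 CPM in high-mt mesenchyme, against 81.4, 62.9 and 134 CPM in low-mt mesenchyme (log2 4.33, SE 0.18, edgeR adjusted p = 2.2e-07). Within high-mt mesenchyme it was lower in the mutants than in the control (log2 -1.08, SE 0.18, adjusted p = 0.0111). Lars2, the mitochondrial leucyl-tRNA synthetase, had 643, 461 and 744 CPM in high-mt mesenchyme against 128, 75.5 and 146 CPM, and Cmss1, a nucleolar protein gene, had 2206, 1666 and 2396 CPM against 393, 298 and 425 CPM. Gm42418 (chromosome 17, 39846958 to 39848788) had 29616, 38911 and 30634 CPM against 5557, 5215 and 6517 CPM, and it overlaps AY036118 on the other strand. The other leading genes were Gm19951, Gm26870, Il31ra, Gm15564, Gm26917 and Camk1d, of which Gm26870 and Gm26917 turned to a log2 of -0.15 and -0.0068 at matched depth and were no longer called. No annotated transcript of these 10 genes shared a 25-base word with a mitochondrial transcript of the annotation. Introns and repeated sequence elsewhere in the genome were not searched, so misplaced reads from those sources were not tested.

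The low-mt class differed in make-up between the libraries. Barcodes with under 2% mt- UMIs were 24.8% and 31.4% of mutant and 40.9% of control mesenchyme barcodes, and in control 1 they had a median of 19 mt- UMIs and 15127 other UMIs, against medians of 800 and 923 mt- UMIs and 58654 and 57924 other UMIs in mutant 1 and mutant 2. With the low class narrowed to 2 to under 10% mt- UMIs, 3686 genes were higher and 3639 lower in high-mt mesenchyme, and the median of the ribosomal protein genes was -1.96. When barcodes of both classes were drawn to match in depth, the low-mt ones drawn had medians of 87, 62 and 15 mt- UMIs in mutant 1, mutant 2 and control 1 and were thus not typical of their class. Of 10809 genes tested then, 1807 were called (16.7%), 322 higher (2.98%) and 1485 lower (13.7%), of which 315 and 1485 were among the calls given first, and 67 of 82 ribosomal protein genes (median -1.96), 28 of 35 respiratory chain genes (-1.55) and 16 of 18 cytoskeletal genes (-1.63) were lower. Of the matrix and membrane genes 3 of 23 were then higher (0.48), of the nuclear-retained RNAs 0 of 7 (0.54), and of the S-phase genes 13 of 40 were lower (-0.64).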

How the data were processed

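The deposited matrices hold counts of UMIs per gene and barcode, whole numbers without normalisation, written by Cell Ranger 7.0.0 per the file headers. Build mm10 and Seurat 4.0.0 are named in the submitters' processing notes without a role. How cells were called, and whether reads in introns were counted, is not stated in the headers or labels, and either could change which barcodes and long genes appear.

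UMI counts were summed per library and mt- class and tested with edgeR 4.0.16 (quasi-likelihood, TMM; R 4.3.3) after a filter of 5 CPM on the mean, leaving out the 13 mt- genes, the 9 gate genes and CRE. Calls are Benjamini-Hochberg adjusted p-values below 0.05. DESeq2 1.42.0 was an alternative. On simulated counts the mutant comparison recovered 75.5% of genes changed by a log2 of 1 and 100% of those changed by 2. The interaction recovered 51.0% and 100%. Every simulated gene had the same dispersion, lower than the 0.0153 fitted in the mutant comparison, so recovery there may be lower in the data. Members, lists and tests were chosen with earlier results of these data known. The effects of 68 alternatives listed with the design and 14 added after seeing the data (4 settings, each applied to several results) are given in the closing section.

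Named genes were, for each comparison, the 10 called genes with the largest and the 10 with the smallest log2 at a mean of at least 20 CPM and the same sign in each library, 3 members per list with the lowest p, and a few always given, of which those that show each result are printed; a few are not reported here. Shares use exact Clopper-Pearson 95% intervals, and floors at 0 use 3 counts. Doublets were called with Scrublet (scanpy 1.11.5, expected rate 0.06) and kept: it marked 0, 2 and 0 high-mt mesenchyme barcodes in mutant 1, mutant 2 and control 1. In control 1 it marked 17 of 5530 barcodes (0.307%), too few to rely on.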

Additional observations from a re-analysis of the deposited data

How the results depend on the processing

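No paired analysis was possible because the control carries no replicate number and the groups share fewer than 2 numbers. The comparison of classes keeps the library as a block by design.

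Of the mutant comparison, which called 150 genes, other settings called 55 (DESeq2, 10163 genes without an adjusted p), 82 (at least 2 gate UMIs), 507 and 70 (filters of 1 and 20 CPM), 620 (no filter), 363 (gate of 5 CP10K), 465 and 980 (mt- limits of 15% and 20%), 89 (mt- genes kept in the total), 0 (prior df 4; 908 at an unadjusted p under 0.05, lowest adjusted p 0.137) and 45 (under 0.5% haemoglobin, added after seeing the data). The p53 list had 27 of 31 positive values with prior df 4 and with DESeq2. Without mutant replicate 1 or 2 its median was 0.73 or 0.91, with no test. The class comparison called 8287 genes, 1807 at matched depth, and 7546 to 7869 with 1 library left out. At matched depth Gm26870 (-0.15) and Gm26917 (-0.0068) changed sign.

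The interaction called 0 genes, against 205 (DESeq2, 9314 without an adjusted p), 286 (DESeq2 size factors), 134 (at least 1000 genes), 150 (at least 2 gate UMIs), 2 (at least 3000 UMIs, added), 1803 (depth matched), 3 and 78 (filters of 1 and 20 CPM), 219 (no filter), 61 (low class from 2%, added), 148 (gate of 5 CP10K), 26 and 24 (mt- limits of 15% and 20%), 271 (mt- genes kept) and 197 (without Pax3, Lbx1, Gata4 or Tbx20 UMIs, added). The cause was not tested.

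The share difference of 3.64 points was -2.20 with at least 1000 genes, -1.30 with a gate of 5 CP10K and -2.20 with at least 2 gate UMIs, and 0.571 to 6.70 without 1 mutant. The Cdkn1a difference of 3.13 points was 2.20 thinned to 1000 UMIs, 6.74 not thinned, and 2.51 to 3.76 without 1 mutant. Of 1052 values of named genes under alternatives, 975 kept direction and call, 69 lost the call, 6 gained it and 2 reversed.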
